A study of Homo sapiens with 24 samples.

Results

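The expression of 8 enzymes of serine synthesis and folate one-carbon metabolism was examined in 2 human leukemia cell lines treated with an inhibitor of DOT1L, the enzyme that methylates lysine 79 of histone H3. The genes were PHGDH, PSAT1, PSPH, SHMT1, SHMT2, MTHFD1, MTHFD2 and MTHFD1L, a set defined by their pathway. Of 19775 genes named on the array, 10971 passed a filter on low values, and 6 of the 8 enzymes were among them. SHMT1 and MTHFD1L did not pass and were not tested. The tested cultures received 3 uM EPZ004777 and their controls the vehicle, 0.1% DMSO. MV4-11 cells, a biphenotypic B myelomonocytic line with an MLL-AF4 rearrangement grown in IMDM with serum, were sampled on days 2, 4 and 6. MOLM-13 cells, an acute myeloid leukemia line with an MLL-AF9 rearrangement grown in RPMI with serum, were sampled on day 6. Each of the 8 groups had 3 biological replicates, so 24 arrays were compared, and line and medium cannot be told apart. The labels do not say how the replicates were made, so the p-values measure the spread between these samples.

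Cells make serine from a glycolytic intermediate in 3 steps. PHGDH oxidizes 3-phosphoglycerate, PSAT1 transfers an amino group to the product, and PSPH removes the phosphate. The serine hydroxymethyltransferases SHMT1 (cytosol) and SHMT2 (mitochondria) then split serine into glycine and a one-carbon unit carried on folate. MTHFD2 and MTHFD1L turn that unit into formate in mitochondria, and MTHFD1 uses formate in the cytosol to charge folate for the synthesis of purines and thymidylate. Several of these genes are known targets of the transcription factor ATF4, which is induced when amino acids are scarce.

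The bases upstream of PHGDH, PSAT1 and MTHFD2 are shown, 3 genes picked by hand whose mRNAs fell under EPZ004777, as described next. They are the 250 bases before the RefSeq start of transcription in GRCh38.p14, on the plus strand, at chr1:119711684-119711933 for PHGDH, chr9:78296875-78297124 for PSAT1 and chr2:74198365-74198614 for MTHFD2. Capitals mark CCAAT, the core of the CCAAT box, on the strand shown.
PHGDH: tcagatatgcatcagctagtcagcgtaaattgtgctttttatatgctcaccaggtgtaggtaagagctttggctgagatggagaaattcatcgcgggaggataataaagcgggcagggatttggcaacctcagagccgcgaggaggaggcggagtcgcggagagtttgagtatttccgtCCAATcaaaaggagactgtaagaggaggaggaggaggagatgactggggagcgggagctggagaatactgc
PSAT1: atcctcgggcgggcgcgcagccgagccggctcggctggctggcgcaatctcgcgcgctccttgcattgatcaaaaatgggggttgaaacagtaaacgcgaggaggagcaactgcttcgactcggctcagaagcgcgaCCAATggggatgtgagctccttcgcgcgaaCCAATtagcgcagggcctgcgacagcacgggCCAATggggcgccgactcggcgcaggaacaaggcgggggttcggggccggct
MTHFD2: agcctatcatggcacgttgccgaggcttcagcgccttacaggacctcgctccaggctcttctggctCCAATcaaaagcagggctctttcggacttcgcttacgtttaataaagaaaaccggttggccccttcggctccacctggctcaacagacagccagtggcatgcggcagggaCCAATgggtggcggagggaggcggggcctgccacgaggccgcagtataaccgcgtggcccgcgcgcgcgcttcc
Windows were available for 6 of the 8 enzymes and not for PSPH and SHMT2. CCAAT, read on both strands, occurred in 32% of 35116 promoter windows of the same length. PSAT1 held 3 copies, 113, 83 and 52 bases before the start, and 3 or more copies were found in 2.93% of all windows. PHGDH held 1 copy, 71 bases before the start, and MTHFD2 held 2, 184 and 74 bases before it. The other enzymes with windows had CCAAT too. SHMT1 held 2 copies, 76 and 25 bases before the start, MTHFD1 held 1, 216 bases before it, and each MTHFD1L window held 1 or 0. CCAAT was thus not particular to the 3 genes shown, and neither was a fall under EPZ004777. PSPH, without a window, fell from day 4 onward, and MTHFD1 fell on day 6 in both lines. The C/EBP-ATF composite sequence TGATGCAA, also read on both strands, was in 0.772% of windows and in none of the windows of PHGDH, PSAT1 and MTHFD2. It was in 2 overlapping windows of MTHFD1L, 129 and 90 bases before their starts. The E-box CACGTG, a sequence bound by MYC with MAX, was in 6.34% of windows and, 15 bases before the start, in that of MTHFD1. The same 2 windows of MTHFD1L held it too, 154 and 115 bases before their starts. In the 3 windows shown, CCAAT was the only one of these motifs found, and a match describes the window, not binding.

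**Figure D1:**
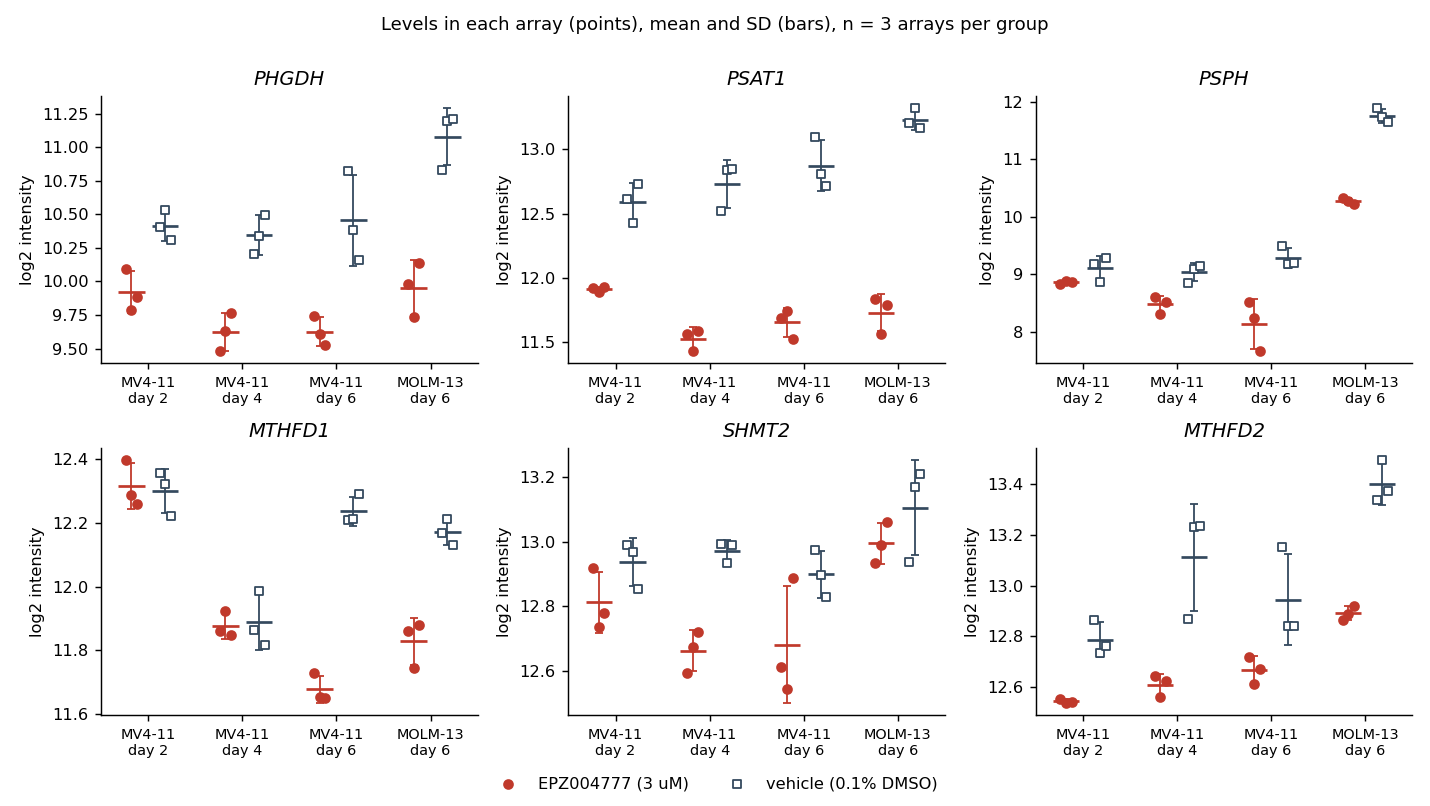
Levels (log2 intensity) of the 6 enzymes measured above the filter, with 1 point per array, the group mean and its SD (n = 3 arrays). Filled circles are EPZ004777 cultures and open squares are the matching vehicle cultures. By the probe set used, PSAT1 was lower in every EPZ004777 array than in every vehicle array. PSPH, by the probe set used, was higher in MOLM-13 than in MV4-11 cells under both treatments.

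The 3 serine synthesis genes fell in both lines under EPZ004777. PSAT1 fell on every day, to 62.4% of the vehicle level on day 2, 43.3% on day 4 and 42.8% on day 6 in MV4-11 cells, and to 35.2% in MOLM-13 cells. PHGDH fell on every day as well, to between 71.0% and 45.8% of the vehicle level. PSPH was called from day 4 onward. Levels are log2 intensities, changes are log2 fold changes of EPZ004777 over vehicle with the standard error (SE) of the model, and a gene is called at an adjusted p under 0.05. On bulk RNA, a lower level per cell and fewer cells with the transcript cannot be told apart.

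PSAT1, on chromosome 9, had levels of 11.92, 11.89 and 11.92 in EPZ004777 arrays of MV4-11 cells on day 2, against 12.61, 12.43 and 12.73 in vehicle arrays. On day 4 it had 11.56, 11.43 and 11.59 with EPZ004777, against 12.52, 12.84 and 12.84 with vehicle. On day 6 it had 11.69, 11.74 and 11.52 with EPZ004777, against 13.10, 12.81 and 12.72 with vehicle. The groups did not overlap on any day. In MOLM-13 cells the EPZ004777 arrays had 11.83, 11.56 and 11.79, against 13.21, 13.32 and 13.17 in the vehicle arrays. The changes were -0.68 ± 0.11 on day 2 (limma, adjusted p = 0.000221), -1.21 ± 0.11 on day 4 (adjusted p = 2.01e-08), -1.22 ± 0.11 on day 6 (adjusted p = 8.42e-09) and -1.505 ± 0.107 in MOLM-13 cells (adjusted p = 4.82e-10). The PSAT1 estimate was the lowest of the 6 enzymes in each comparison, a 2.84-fold fall in MOLM-13 cells. On day 6 and in MOLM-13 cells PSPH was close to it, and without replicate 1 of the day 6 EPZ004777 arrays of MV4-11 cells PSPH fell further than PSAT1, at -1.331.

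PHGDH, the first enzyme of the pathway, on chromosome 1, had 10.10, 9.79 and 9.88 in EPZ004777 arrays on day 2, against 10.41, 10.54 and 10.31 in vehicle arrays. On day 4 it had 9.48, 9.63 and 9.76 with EPZ004777, against 10.20, 10.34 and 10.50 with vehicle. By day 6 the values were 9.74, 9.61 and 9.53 with EPZ004777, against 10.83, 10.38 and 10.16 with vehicle. Each pair of groups was separate, and the vehicle arrays of day 6 were the most spread (SD 0.34). In MOLM-13 cells the EPZ004777 arrays had 9.98, 9.73 and 10.14, against 10.83, 11.20 and 11.21 in the vehicle arrays. The changes were -0.495 ± 0.148 on day 2 (limma, adjusted p = 0.0326), -0.72 ± 0.15 on day 4 (adjusted p = 0.00048), -0.83 ± 0.15 on day 6 (adjusted p = 7.1e-05) and -1.13 ± 0.15 in MOLM-13 cells (adjusted p = 1.7e-06). The day 2 call was lost when replicate 2 or 3 of the EPZ004777 arrays, or replicate 1 or 2 of the vehicle arrays, was left out, with adjusted p between 0.0802 and 0.136.

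PSPH, on chromosome 7, had 8.84, 8.88 and 8.87 in EPZ004777 arrays of day 2, against 9.18, 8.87 and 9.28 in vehicle arrays, which overlapped. On day 4 it had 8.61, 8.31 and 8.52 with EPZ004777, against 8.85, 9.10 and 9.15 with vehicle. By day 6 the values were 8.52, 8.25 and 7.66 with EPZ004777, against 9.49, 9.18 and 9.19 with vehicle. The day 4 and day 6 groups were separate, and replicate 3 of the day 6 EPZ004777 arrays was the lowest of all 24. In MOLM-13 cells the EPZ004777 arrays had 10.33, 10.28 and 10.23, against 11.90, 11.73 and 11.66 in the vehicle arrays. The changes were -0.25 ± 0.16 on day 2 (limma, adjusted p = 0.367), -0.56 ± 0.16 on day 4 (adjusted p = 0.00641), -1.14 ± 0.16 on day 6 (adjusted p = 3.34e-06) and -1.48 ± 0.16 in MOLM-13 cells (adjusted p = 1.07e-07). Without replicate 3 of the day 6 EPZ004777 arrays, the day 6 change was -0.91 (limma, adjusted p = 7.26e-06).

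Of the cytosolic folate enzymes, MTHFD1 was measured and SHMT1 was not measurable. MTHFD1, on chromosome 14, fell on day 6 in both lines and was not called on days 2 and 4. It had 12.40, 12.29 and 12.26 in EPZ004777 arrays of day 2, against 12.36, 12.32 and 12.22 in vehicle arrays. On day 4 it had 11.86, 11.92 and 11.85 with EPZ004777, against 11.86, 11.99 and 11.82 with vehicle. Both pairs of groups overlapped, and both groups of day 4 lay below both groups of day 2. MTHFD1 on day 6 had 11.73, 11.65 and 11.65 with EPZ004777, against 12.21, 12.21 and 12.29 with vehicle. In MOLM-13 cells the EPZ004777 arrays had 11.86, 11.75 and 11.88, against 12.17, 12.21 and 12.13 in the vehicle arrays. Neither day 6 pair overlapped. The changes were 0.01 ± 0.06 on day 2 (limma, adjusted p = 0.941), -0.01 ± 0.06 on day 4 (adjusted p = 0.904), -0.56 ± 0.06 on day 6 (adjusted p = 8.95e-08) and -0.34 ± 0.06 in MOLM-13 cells (adjusted p = 3.71e-05).

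The vehicle arrays of day 4 had themselves a lower MTHFD1 level than those of days 2 and 6, with a difference of -0.38 ± 0.05 (limma, adjusted p = 2.29e-05). Set against the vehicle arrays of days 2 and 6, the day 4 EPZ004777 arrays had a change of -0.39 ± 0.05 (limma, adjusted p = 1.74e-06), and all 6 enzymes tested were then called lower on day 4. With that vehicle, 28% of all genes were lower. MTHFD2 differed the other way, with a vehicle level 0.245 ± 0.077 higher on day 4 (limma, adjusted p = 0.0217), and its day 4 change against the other vehicle arrays was -0.26 ± 0.08. That MTHFD2 difference was lost without replicate 2 or 3 of the day 4 vehicle arrays (adjusted p = 0.1305 and 0.1605) and by 234976_x_at (0.16, adjusted p = 0.56). Of all genes, 28.6% differed between the day 4 vehicle arrays and the others, against 1.12% between vehicle arrays of days 6 and 2, where none of the 6 enzymes was called.

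SHMT1, on chromosome 17, and MTHFD1L, on chromosome 6, each had 2 probe sets assigned to that gene alone. The SHMT1 probe sets read between 2.29 and 3.07 in all arrays. Those of MTHFD1L read between 2.19 and 2.22, at or next to the lowest value of the arrays, 2.19. Neither gene reached the filter (log2 of 4) in any array, which gives no level and does not show that the genes were silent. A further 2 probe sets of each, listed with several genes, were not used.

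Among the mitochondrial folate enzymes, MTHFD2 fell from day 4 onward and in MOLM-13 cells, while SHMT2 fell on days 4 and 6 in MV4-11 cells by a small amount and was not called in MOLM-13 cells by the probe set used. MTHFD2, on chromosome 2, had 12.55, 12.54 and 12.54 in EPZ004777 arrays of day 2, against 12.87, 12.73 and 12.76 in vehicle arrays. On day 4 it had 12.64, 12.56 and 12.63 with EPZ004777, against 12.87, 13.23 and 13.24 with vehicle. Levels on day 6 were 12.72, 12.61 and 12.67 with EPZ004777, against 13.15, 12.84 and 12.84 with vehicle. The EPZ004777 arrays lay below the vehicle arrays on each day. In MOLM-13 cells they had 12.86, 12.89 and 12.92, against 13.34, 13.49 and 13.37 in the vehicle arrays. The changes were -0.24 ± 0.09 on day 2 (limma, adjusted p = 0.0837), -0.50 ± 0.09 on day 4 (adjusted p = 0.000106), -0.28 ± 0.09 on day 6 (adjusted p = 0.0107) and -0.51 ± 0.09 in MOLM-13 cells (adjusted p = 4.78e-05). The day 6 change was -0.17 (limma, adjusted p = 0.0939) without replicate 1 of the vehicle arrays, in which PHGDH, PSAT1 and PSPH were also highest of the 3 vehicle arrays. It was -0.14 (adjusted p = 0.193) after a repeated quantile normalization.

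SHMT2, on chromosome 12, had 12.92, 12.74 and 12.78 in EPZ004777 arrays of day 2, against 12.99, 12.97 and 12.85 in vehicle arrays. On day 4 it had 12.60, 12.67 and 12.72 with EPZ004777, against 12.99, 12.94 and 12.99 with vehicle. On day 6 it had 12.61, 12.55 and 12.89 with EPZ004777, against 12.97, 12.90 and 12.83 with vehicle. The groups were separate on day 4 and overlapped on days 2 and 6. In MOLM-13 cells the EPZ004777 arrays had 12.93, 12.99 and 13.06, against 12.94, 13.17 and 13.21 in the vehicle arrays, again with overlap. The changes were -0.12 ± 0.08 on day 2 (limma, adjusted p = 0.414), -0.31 ± 0.08 on day 4 (adjusted p = 0.00503), -0.22 ± 0.08 on day 6 (adjusted p = 0.0305) and -0.11 ± 0.08 in MOLM-13 cells (adjusted p = 0.258, 95% interval -0.286 to 0.065). The day 6 call was lost without replicate 1 or 2 of either day 6 group, with adjusted p between 0.0604 and 0.159, and after a repeated quantile normalization (-0.065, adjusted p = 0.577).

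**Figure D2:**
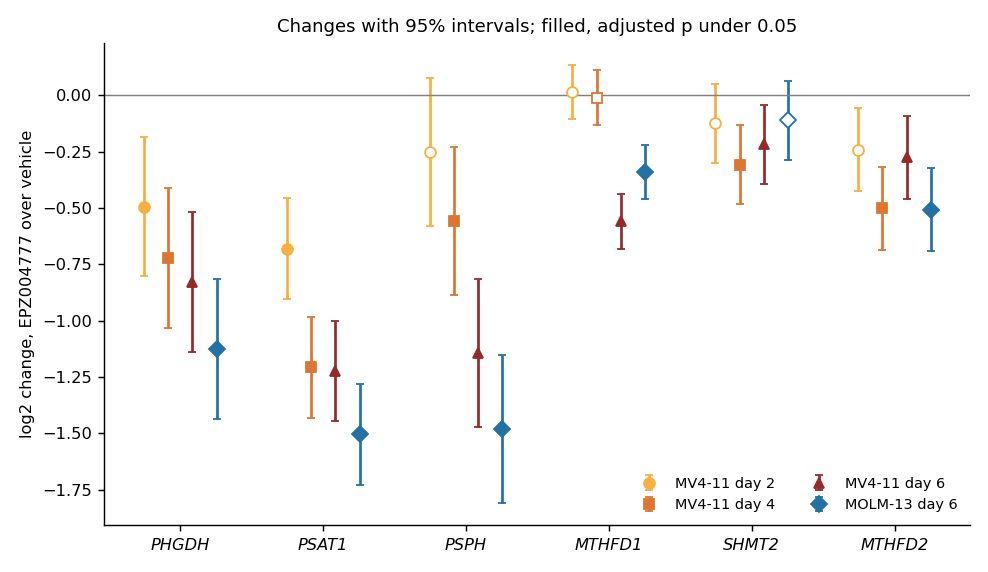
Log2 change of EPZ004777 over vehicle for the 6 enzymes in MV4-11 cells on days 2, 4 and 6 and in MOLM-13 cells on day 6, with 95% intervals from the model. Filled symbols have an adjusted p under 0.05. PSAT1 lies lowest in each comparison, with PSPH close to it on day 6 in both lines, and MTHFD1 lies at 0 on days 2 and 4 and at -0.56 on day 6.

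Counted over the enzymes, 2 of the 6 tested were lower on day 2 in MV4-11 cells, 5 on day 4 and 6 on day 6, and 5 in MOLM-13 cells. None was higher in any of the 4 comparisons. Of all 10971 genes, 3.68% were lower on day 2, 21.0% on day 4, 28.4% on day 6 and 36.5% in MOLM-13 cells, while 8.82%, 25.2%, 33.6% and 29.3% were higher. The median change of the 6 enzymes was -0.25 on day 2, -0.53 on day 4, -0.69 on day 6 and -0.82 in MOLM-13 cells. The median of all genes tested was 0.02, 0.01, 0.04 and -0.03 in the same order. Requiring a change of at least 1.5-fold left 1, 2, 3 and 3 enzymes: PSAT1 on day 2, PSAT1 and PHGDH on day 4, and all 3 serine synthesis genes on day 6 in both lines. By that rule 0.529% of all genes were lower on day 2, 6.65% on day 4, 11.5% on day 6 and 18.1% in MOLM-13 cells.

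The change under EPZ004777 differed between days for 3 enzymes in MV4-11 cells. From day 2 to day 4 the PSAT1 change deepened by -0.53 ± 0.15 (limma, adjusted p = 0.0229), and the other 5 enzymes were not called, where 15.0% of all genes were. This call was lost without any 1 of 4 arrays, with adjusted p between 0.0594 and 0.0705, and by the other PSAT1 probe set, 220892_s_at (-0.63, adjusted p = 0.501). From day 4 to day 6 the change of MTHFD1 differed by -0.55 ± 0.08 (adjusted p = 0.000136), where 25.7% of all genes were called. With the vehicle arrays of days 2 and 6 as the day 4 control, the MTHFD1 difference was -0.17 and not called (adjusted p = 0.076). The PSAT1 difference between days 6 and 4 was -0.02, with a 95% interval of -0.333 to 0.3.

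Between days 2 and 6 the change of PSPH differed by -0.89 ± 0.22 (limma, adjusted p = 0.00351), that of MTHFD1 by -0.57 ± 0.08 (adjusted p = 2.32e-05) and that of PSAT1 by -0.54 ± 0.15 (adjusted p = 0.00776). PHGDH, SHMT2 and MTHFD2 were not called, and 39.6% of all genes were. By the other PSPH probe set above the filter, 205194_at, the PSPH difference was -0.105 ± 0.195 and not called (adjusted p = 0.707), and by 214437_s_at SHMT2 was called (-0.565, adjusted p = 0.000495). In the EPZ004777 arrays alone, PSPH fell by 0.72 ± 0.16 (limma, adjusted p = 0.00068), MTHFD1 by 0.64 ± 0.06 (adjusted p = 2.82e-08) and PSAT1 by 0.26 ± 0.11 (adjusted p = 0.046) on the log2 scale between days 2 and 6. Of all genes, 55.7% were called there. By 205194_at PSPH gave 0.016 ± 0.138 (adjusted p = 0.943), so its fall between these days was seen by 205048_s_at alone of its probe sets above the filter, while by 214437_s_at SHMT2 changed by -0.52 (adjusted p = 1.36e-05). The PSAT1 fall was lost without any single array of the day 2 EPZ004777 group, or without replicate 1 or 3 of the day 6 one, with adjusted p between 0.0627 and 0.172. PHGDH differed by -0.30 ± 0.15 (adjusted p = 0.0982), SHMT2 by -0.13 ± 0.08 (adjusted p = 0.198) and MTHFD2 by 0.12 ± 0.09 (adjusted p = 0.247).

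Between the lines, the change of MTHFD1 on day 6 was smaller in MOLM-13 than in MV4-11 cells, by 0.22 ± 0.08 (limma, adjusted p = 0.0323), and no other enzyme was called, against 52.0% of all genes. Leaving out any 1 of 6 single arrays ended that call (adjusted p between 0.0508 and 0.0794). The serine synthesis changes were more negative in MOLM-13 cells by -0.30 ± 0.21 for PHGDH, -0.28 ± 0.15 for PSAT1 and -0.34 ± 0.22 for PSPH, none called by the probe sets used. Their 95% intervals ran from -0.735 to 0.141, from -0.598 to 0.035 and from -0.801 to 0.128. Without replicate 1 of the vehicle MV4-11 arrays of day 6, PHGDH (-0.48), PSAT1 (-0.39) and MTHFD2 (-0.34) were called (adjusted p = 0.0394, 0.0304 and 0.0217). Without replicate 3 of the day 6 EPZ004777 arrays of MV4-11 cells, PSPH was called (-0.575, adjusted p = 0.00838). By their other probe sets the differences were called, at -2.64 for PSAT1 (220892_s_at, adjusted p = 0.000263), -0.81 for PSPH (205194_at, adjusted p = 0.00181) and -1.01 for MTHFD2 (234976_x_at, adjusted p = 0.00605).

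Vehicle cultures of the lines differed in 5 of the 6 enzymes on day 6, all higher in MOLM-13 cells by the probe sets used, where 63.8% of all genes were called in one direction or the other. PSPH was 5.56-fold higher in MOLM-13 cells, 2.48 ± 0.16 on the log2 scale (limma, adjusted p = 3.31e-11), and by 205194_at the difference was 1.09 ± 0.14 (adjusted p = 9.86e-07). PHGDH was higher by 0.62 ± 0.15 (adjusted p = 0.00107), MTHFD2 by 0.455 ± 0.088 (adjusted p = 0.000159), PSAT1 by 0.36 ± 0.11 (adjusted p = 0.0064) and SHMT2 by 0.205 ± 0.084 (adjusted p = 0.0388). MTHFD1 differed by -0.07 ± 0.06 (adjusted p = 0.333). The SHMT2 difference was lost without replicate 2 or 3 of either vehicle group, with adjusted p between 0.0783 and 0.165, and by both its other probe sets (adjusted p = 0.0678 and 0.2002). PSAT1 turned to -1.07 by 220892_s_at (adjusted p = 0.0145) and MTHFD2 to -0.25 by 234976_x_at (adjusted p = 0.29).

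Ordered over the 8 groups by the probe sets used, the 4 EPZ004777 groups held the 4 lowest mean levels of PHGDH and of PSAT1. The vehicle MOLM-13 group held the highest of both. For PHGDH the lowest means were 9.62 ± 0.14 in the EPZ004777 MV4-11 arrays of day 4 and 9.63 ± 0.11 in those of day 6, which overlapped. The next were 9.92 ± 0.16 on day 2 and 9.95 ± 0.20 in MOLM-13 cells, which overlapped too. The vehicle MV4-11 groups followed, from 10.35 ± 0.15 to 10.46 ± 0.34 with overlap between neighbours, and vehicle MOLM-13 cells had 11.08 ± 0.21 (SD, n = 3 each). For PSAT1 the EPZ004777 groups ran from 11.53 ± 0.09 on day 4 to 11.91 ± 0.02 on day 2, and a gap of 0.68 separated them from the lowest vehicle group, 12.59 ± 0.15 on day 2. The vehicle MV4-11 groups overlapped each other, and vehicle MOLM-13 cells were highest, at 13.23 ± 0.08. By 220892_s_at the PSAT1 order differed. Vehicle MOLM-13 cells, at 10.52 ± 0.52, then lay below the EPZ004777 MV4-11 group of day 2 (10.63 ± 0.11) and below the vehicle MV4-11 groups (11 to 11.59).

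For PSPH both MOLM-13 groups lay above all 6 MV4-11 groups by the probe set used. By 205194_at the EPZ004777 MOLM-13 arrays, at 8.99 ± 0.08, lay below the means of the vehicle MV4-11 groups, 9.11 to 9.23. By the probe set used its MV4-11 means ran from 8.14 ± 0.43 with EPZ004777 on day 6 to 9.29 ± 0.17 with vehicle on day 6, and the EPZ004777 group of day 2 overlapped the vehicle group next to it. For MTHFD1 the lowest mean was 11.68 ± 0.04 in EPZ004777 MV4-11 arrays of day 6, and the highest was 12.31 ± 0.07 in those of day 2. For MTHFD2 the order ran from 12.54 ± 0.01 with EPZ004777 on day 2 to 13.40 ± 0.08 in vehicle MOLM-13 cells. By 234976_x_at MTHFD2 ran from 5.56 ± 0.11 in EPZ004777 MOLM-13 cells to 7.49 ± 0.12 in the vehicle MV4-11 arrays of day 4. SHMT2 ran from 12.66 ± 0.06 with EPZ004777 on day 4 to 13.10 ± 0.15 in vehicle MOLM-13 cells, and each neighbour in its order overlapped the next. By 214437_s_at it ran from 11.12 ± 0.12 with EPZ004777 to 11.999 ± 0.059 with vehicle, both in MOLM-13 cells.

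**Figure D3:**
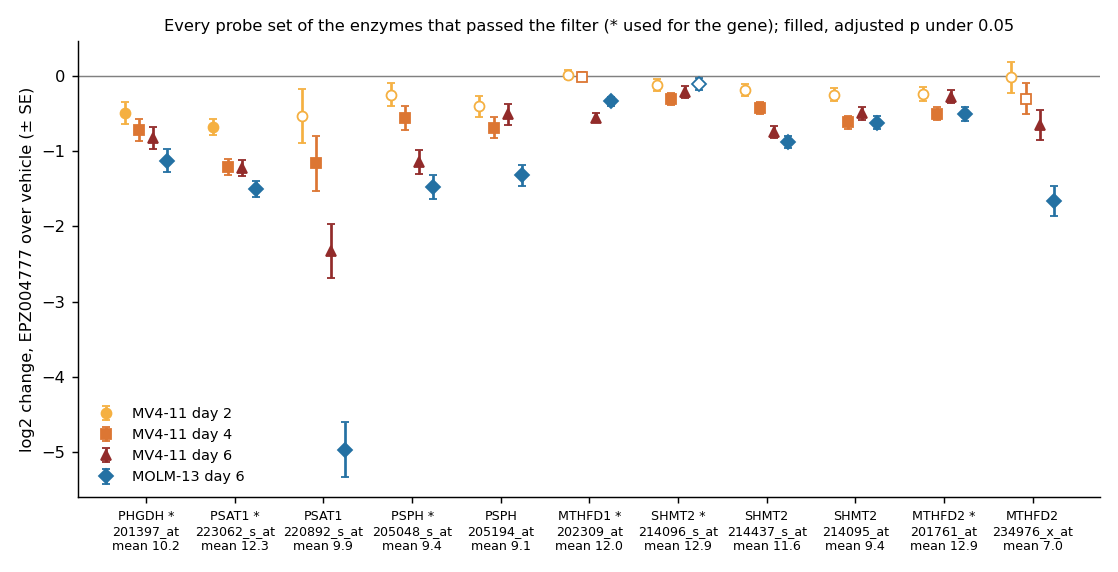
Log2 change of EPZ004777 over vehicle (± SE) for each probe set of the 6 enzymes that passed the filter, with the mean log2 level of the probe set under its name. Filled symbols have an adjusted p under 0.05, and an asterisk marks the probe set used for the gene. The second probe set of PSAT1 reaches -4.97 in MOLM-13 cells, against -1.505 for the first.

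Other probe sets of the same genes gave different sizes. PSAT1 was read by a second probe set, 220892_s_at, which had 4.97, 5.34 and 6.35 in EPZ004777 MOLM-13 arrays, against 10.22, 10.23 and 11.12 in the vehicle arrays. Its change was -4.97 ± 0.36 (limma, adjusted p = 6.77e-10), against -1.505 by 223062_s_at, the probe set used. On day 2 it gave -0.54 ± 0.36 and was not called (adjusted p = 0.41). PSPH was lower by both its probe sets above the filter on days 4 and 6 and in MOLM-13 cells, and 205194_at gave -0.51 on day 6 (adjusted p = 0.00316) where 205048_s_at gave -1.14. A further PSPH probe set, 244819_x_at, never exceeded 2.61 and gives no level.

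SHMT2 was called in MOLM-13 cells by its other probe sets, at -0.88 ± 0.08 by 214437_s_at (limma, adjusted p = 9.82e-09) and -0.62 ± 0.09 by 214095_at (adjusted p = 3.97e-06). By 214437_s_at the arrays read 10.98, 11.18 and 11.20 with EPZ004777, against 11.94, 11.99 and 12.06 with vehicle, with no overlap. On day 6 in MV4-11 cells these probe sets gave -0.75 and -0.50, against -0.22 for 214096_s_at, the brightest. MTHFD2 by its dimmer probe set, 234976_x_at, changed by -1.67 ± 0.20 in MOLM-13 cells (adjusted p = 6.22e-07) and by -0.65 on day 6 (adjusted p = 0.00849), and was not called on day 4. The second MTHFD1 probe set was below the filter in all arrays. The direction under EPZ004777 was the same by every probe set above the filter of these genes, and the size was not.

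**Figure D4:**
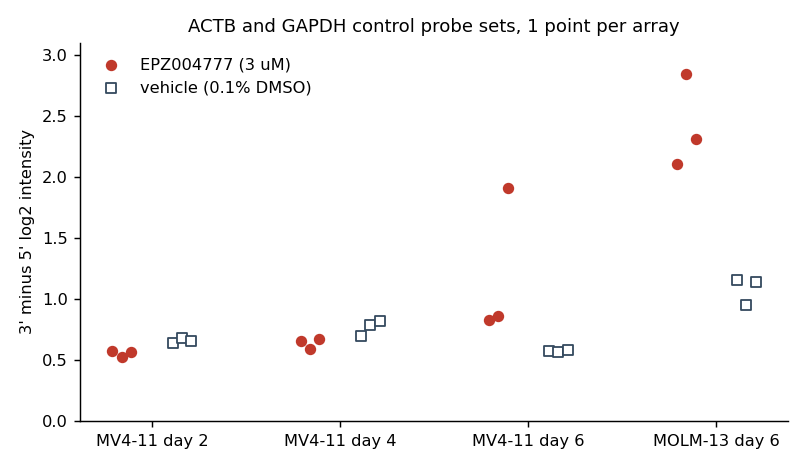
Difference between 3' and 5' control probe sets of ACTB and GAPDH (log2 intensity, mean of both genes), a measure of RNA integrity and labelling length, with 1 point per array. EPZ004777 MOLM-13 arrays lie between 2.10 and 2.84 and vehicle MOLM-13 arrays between 0.954 and 1.153, while replicate 3 of the EPZ004777 MV4-11 arrays of day 6 stands at 1.911.

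RNA integrity moved with treatment on day 6. The 3' minus 5' difference of the control transcripts was 2.10, 2.31 and 2.84 in EPZ004777 MOLM-13 arrays, against 0.954, 1.135 and 1.153 in vehicle arrays. In MV4-11 cells on day 6 it was 0.826, 0.861 and 1.911 with EPZ004777, against 0.567, 0.573 and 0.583 with vehicle, and on days 2 and 4 it lay between 0.525 and 0.817 in all arrays. With this difference as a covariate, the MOLM-13 changes were -1.22 for PSAT1, -0.84 for PHGDH (limma, adjusted p = 0.0191), -0.88 for PSPH (adjusted p = 0.00895) and -0.53 for MTHFD2 (adjusted p = 0.0175). MTHFD1 was no longer called (-0.23, adjusted p = 0.0758), and SHMT2 became so (-0.37, adjusted p = 0.0395). With the covariate, all 6 enzymes were called in MV4-11 cells on day 6, with PSPH at -0.86 and PSAT1 at -1.09. Of all 10971 genes, 6087 were called there with it, in either direction. Between days 6 and 2, the differences of PSAT1 (-0.39, adjusted p = 0.0835) and PSPH (-0.565, adjusted p = 0.0581) were not called with it.

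**Figure D5:**
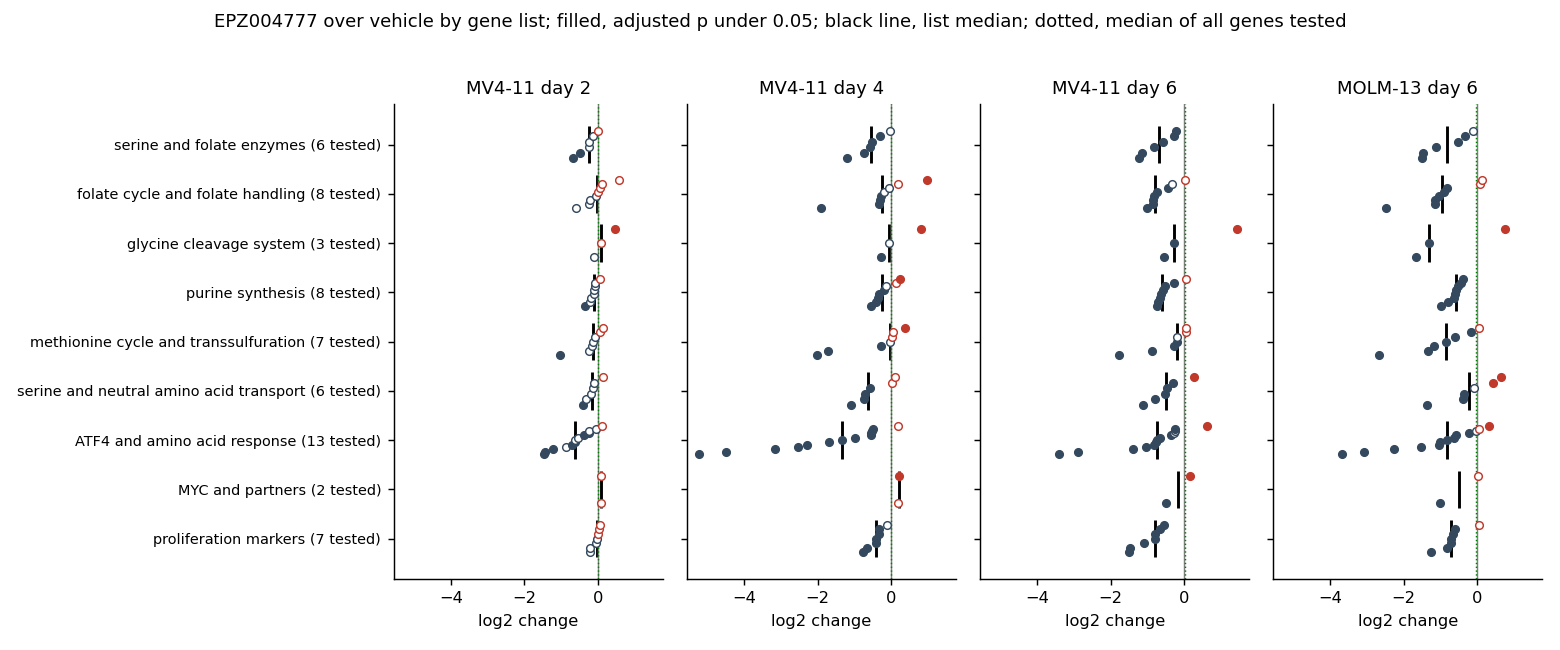
Log2 change of EPZ004777 over vehicle for the serine and folate enzymes and for 8 lists of related genes, 1 point per gene tested, in each of the 4 comparisons. Filled points have an adjusted p under 0.05, red points are above 0 and blue points below it, black lines are list medians and the dotted line is the median of all genes tested. The ATF4 list has the lowest median of the 8 lists on days 2 and 4.

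Of 62 further genes in 8 lists of the surrounding pathways, 54 were tested. On days 2, 4 and 6 and in MOLM-13 cells, 3.68%, 21.0%, 28.4% and 36.5% of all genes were lower. In the same order, 8.82%, 25.2%, 33.6% and 29.3% were higher. Each list count below stands beside these shares. In the list of folate handling, 8 of 13 genes were tested. None was called on day 2 in MV4-11 cells. On day 4, 4 were lower and 1 was higher, on day 6, 6 were lower, and in MOLM-13 cells 6 were lower. Its median change was -0.02, -0.24, -0.78 and -0.96 in that order. ALDH1L2, the mitochondrial enzyme that oxidizes formyl-folate, had 6.44, 6.98 and 7.23 in EPZ004777 MOLM-13 arrays, against 9.28, 9.39 and 9.48 in vehicle arrays, a change of -2.50 ± 0.19 (limma, adjusted p = 1.64e-09). It fell by 1.89 ± 0.19 on day 4 (adjusted p = 1.51e-07) and by 1.02 ± 0.19 on day 6 (adjusted p = 0.000141) on the log2 scale in MV4-11 cells. With the vehicle of days 2 and 6 as control, its day 4 change was -1.08 (limma, adjusted p = 1.75e-05).

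SLC25A32, which carries folate into mitochondria, had 10.28, 10.57 and 10.60 in EPZ004777 MOLM-13 arrays, against 11.60, 11.64 and 11.67 in vehicle arrays. The change was -1.16 ± 0.09 (limma, adjusted p = 8.75e-10), and on day 6 in MV4-11 cells it was -0.81 ± 0.09 (adjusted p = 1.08e-07). TYMS, which uses methylene-folate to make thymidylate, changed by -0.84 ± 0.10 on day 6 in MV4-11 cells (adjusted p = 2.95e-07) and by -0.81 ± 0.10 in MOLM-13 cells (adjusted p = 4.18e-07). It was not called on day 2 (0.05) or day 4 (-0.20, adjusted p = 0.094). MTFMT, which formylates the mitochondrial initiator tRNA, was higher on day 4 (0.98 ± 0.21, adjusted p = 0.000766) and was the one higher call of this list. Against the vehicle arrays of days 2 and 6, MTFMT gave 0.11 on day 4 and was not called (limma, adjusted p = 0.63). TYMS gave -0.41 against them and was called lower (adjusted p = 0.000296).

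Of the glycine cleavage system, a mitochondrial complex that turns glycine into a one-carbon unit, 3 of 4 genes were tested. AMT, its aminomethyltransferase, was higher in all 4 comparisons, by 0.46 ± 0.08 on day 2 (limma, adjusted p = 0.000669), 0.825 ± 0.081 on day 4 (adjusted p = 7.82e-08), 1.45 ± 0.08 on day 6 (adjusted p = 1.41e-11) and 0.75 ± 0.08 in MOLM-13 cells (adjusted p = 1.27e-07). On day 6 it had 7.905, 8.02 and 8.09 in EPZ004777 arrays, against 6.51, 6.53 and 6.63 in vehicle arrays. GCSH, which carries the aminomethyl group, and DLD, the dehydrogenase the complex shares with pyruvate dehydrogenase, fell in MOLM-13 cells by 1.30 ± 0.10 (adjusted p = 1.79e-09) and 1.66 ± 0.12 (adjusted p = 7.45e-10) on the log2 scale. GLDC, the decarboxylase of the complex, was not tested.

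All 8 genes of purine synthesis, which consumes formyl-folate at a pair of steps, were tested. On day 2, 1 was lower, on day 4, 5 were lower and 1 higher, on day 6, 7 were lower, and in MOLM-13 cells all 8 were lower. The median change was -0.09, -0.25, -0.60 and -0.58. PPAT, the first committed enzyme, was lower in each comparison, with changes of -0.35 ± 0.07 on day 2 (limma, adjusted p = 0.00185) and -0.66 ± 0.07 on day 6 (adjusted p = 1.09e-07). ADSL, adenylosuccinate lyase, was the higher gene of day 4 (0.26 ± 0.06, adjusted p = 0.00133), and against the vehicle arrays of days 2 and 6 it gave 0.02 (adjusted p = 0.739).

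Of 7 genes of the methionine cycle and transsulfuration, 1 was lower on day 2, 3 were lower and 1 was higher on day 4, 4 were lower on day 6, and 6 were lower in MOLM-13 cells. The shares of all genes called lower were 3.68%, 21.0%, 28.4% and 36.5% in that order. CBS, which joins homocysteine and serine, changed by -1.02 ± 0.14 on day 2 (limma, adjusted p = 4.1e-05), -2.03 ± 0.14 on day 4 (adjusted p = 4.88e-10), -1.78 ± 0.14 on day 6 (adjusted p = 1.63e-09) and -1.34 ± 0.14 in MOLM-13 cells (adjusted p = 7.37e-08). CTH, which releases cysteine, had 5.85, 5.90 and 5.99 in EPZ004777 MOLM-13 arrays, against 8.17, 8.71 and 8.90 in vehicle arrays, a change of -2.68 ± 0.27 (adjusted p = 5.1e-08). AHCY, which hydrolyses adenosylhomocysteine, was the higher gene of day 4 (0.395 ± 0.107, adjusted p = 0.00503). Against the vehicle arrays of days 2 and 6, AHCY gave 0.14 and was not called (adjusted p = 0.206). MAT2A, which makes the methyl donor S-adenosylmethionine, was not called in any comparison by its brightest probe set (0.05 on day 6, adjusted p = 0.388), and the mean of its probe sets gave -0.89 on day 6 and -1.277 in MOLM-13 cells.

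Of 6 transporters of serine and other neutral amino acids, 1 was lower on day 2, 4 on day 4 and 5 on day 6, with 1 higher on day 6, and 3 were lower and 2 higher in MOLM-13 cells. In MOLM-13 cells 36.5% of all genes were lower and 29.3% higher, and on day 2 3.68% were lower. SLC1A5, a plasma membrane transporter of neutral amino acids, had 9.92, 9.92 and 9.96 in EPZ004777 MOLM-13 arrays, against 11.17, 11.33 and 11.36 in vehicle arrays, a change of -1.36 ± 0.09 (limma, adjusted p = 9.26e-11). SFXN1, which carries serine into mitochondria, changed by -1.09 ± 0.11 on day 4 (adjusted p = 1.39e-07) and -1.105 ± 0.111 on day 6 (adjusted p = 6.04e-08) in MV4-11 cells. SLC1A4, a serine and alanine transporter, fell by 0.58 ± 0.07 on day 4 in MV4-11 cells (adjusted p = 9.28e-07) and was higher by 0.44 ± 0.07 in MOLM-13 cells (adjusted p = 1.18e-05). Its day 4 change against the vehicle arrays of days 2 and 6 was -0.28 (limma, adjusted p = 0.000504).

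The list of ATF4 and amino acid response genes had 13 of 14 genes tested. On day 2, 7 were lower, on day 4, 12 were lower, on day 6, 10 were lower and 1 higher, and in MOLM-13 cells 10 were lower and 1 higher, with medians of -0.61, -1.34, -0.74 and -0.82. The transcript of ATF4 itself had 12.86, 12.98 and 13.03 in EPZ004777 arrays of day 2, against 13.32, 13.33 and 13.34 in vehicle arrays, a change of -0.37 ± 0.10 (limma, adjusted p = 0.02). It changed by -0.54 ± 0.10 on day 4 (adjusted p = 0.000199), -0.65 ± 0.10 on day 6 (adjusted p = 1.67e-05) and -0.58 ± 0.10 in MOLM-13 cells (adjusted p = 5.43e-05). ASNS, asparagine synthetase, changed by -0.62 ± 0.13 on day 2 (adjusted p = 0.00282), -0.52 ± 0.13 on day 4 (adjusted p = 0.00234) and -1.52 ± 0.13 in MOLM-13 cells (adjusted p = 5.15e-09). On day 6 in MV4-11 cells it gave -0.28 ± 0.13 and was not called (adjusted p = 0.0673). Day 4 changes against the vehicle arrays of days 2 and 6 were -0.27 for ASNS (limma, adjusted p = 0.0442) and -0.32 for ATF4 (adjusted p = 0.00438).

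TRIB3, a pseudokinase, and ATF3, a stress-induced transcription factor, had the largest changes of the ATF4 list on day 4, at -4.49 ± 0.28 (limma, adjusted p = 1.23e-10) and -5.23 ± 0.46 (adjusted p = 1.66e-08). Against the vehicle arrays of days 2 and 6 the same EPZ004777 arrays gave -2.63 and -2.20. In the vehicle arrays, 8 of the 13 genes were higher and 1 lower on day 4 than on days 2 and 6. Of all genes, 28.6% were called there in one direction or the other. Of the 6 enzymes, MTHFD2 alone was called higher there.

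MYC, a transcription factor that drives growth genes, was not called on day 2 (0.08) or day 4 (0.21). It changed by -0.49 ± 0.12 on day 6 in MV4-11 cells (limma, adjusted p = 0.00115) and by -1.003 ± 0.116 in MOLM-13 cells (adjusted p = 3.4e-07). Its partner MAX was higher on days 4 and 6 in MV4-11 cells (0.225 ± 0.059 and 0.18 ± 0.06) and not called in MOLM-13 cells, and by the mean of its probe sets it was lower on day 6 in both lines (-0.566 and -0.948). Of 7 proliferation markers, none was called on day 2, 6 were lower on day 4, 7 on day 6 and 6 in MOLM-13 cells. MKI67, the Ki-67 antigen of cycling cells, changed by -1.48 ± 0.07 on day 6 in MV4-11 cells (adjusted p = 1.71e-12) and by 0.06 ± 0.07 in MOLM-13 cells (adjusted p = 0.478). On day 2 MKI67 gave -0.215 ± 0.071 (adjusted p = 0.0553), with every EPZ004777 array below every vehicle array. The part of proliferation in the enzyme changes was not tested.

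Across the 24 arrays the levels of PHGDH and PSAT1 were the most alike of the 15 pairs of enzymes (Pearson r = 0.926), and those of MTHFD1 and MTHFD2 the least (r = 0.098). Within groups, after each group mean was removed, the pairs ran from r = -0.579 for PSPH and SHMT2 to r = 0.733 for PSAT1 and MTHFD2. PHGDH and PSAT1 had r = 0.55, and the pairs with MTHFD1 lay between -0.018 and 0.181. The arrays share treatment, line and normalization, so these values describe the samples. Of all other genes tested, those most like each enzyme over the 24 arrays were EIF4EBP1 (r = 0.945), CD151 and PUS1 for PHGDH, and KCTD9 (r = 0.959), RGS16 and SLC7A5 (r = 0.954) for PSAT1. They were STK17B (r = 0.983), UBE2V2 and BCAT1 for PSPH, and CDCA3 (r = 0.947), HUS1 and PSME3 for MTHFD1. For SHMT2 they were XPO6 (r = 0.932), PCK2 and JUND, and for MTHFD2 they were TUBE1 (r = 0.962), CTH (r = 0.932) and HVCN1. EIF4EBP1, SLC7A5 and CTH also stand in the lists above.

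Of 8 measured myeloid markers, 8 were above the filter in at least 1 array and 6 in all, among them SPI1 and FLT3. ANPEP passed the filter in 5 arrays and CD14 in 3. In MV4-11 cells CD14 lay between 2.19 and 2.2, at or next to the lowest value. Of markers of other cell types, MS4A1, CD79A, CD3E, CD3G, CD2, HBB and ALAS2 were below the filter in all arrays. So were EPCAM, CDH1, COL1A2, DCN and LUM. The T cell gene CD3D reached 8.31 in MOLM-13 cells, and the B cell gene PAX5 passed the filter in 16 arrays of MV4-11 cells. The epithelial gene KRT8 passed it in 7 arrays, up to 4.51. The epithelial gene KRT18 and the fibroblast gene COL1A1 passed it in all 24. The part of these passing genes in the results was not tested. Arrays of 1 group correlated at a mean r between 0.992 and 0.9979, lowest in the EPZ004777 MV4-11 arrays of day 6.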

How the data were processed

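RNA of 24 samples was hybridised to Affymetrix arrays of 54675 probe sets. The deposited values are intensities. The submitters' processing notes name GCRMA, a method that adjusts background by probe sequence, quantile normalizes and summarizes each probe set. No source used here gives the version. The deposited intensity values were linear, from 4.551 to 71593, so log2 was taken with a pseudocount of 0, giving 2.19 to 16.1. All 24 arrays shared 1 lowest value.

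Of the probe sets, 41091 had 1 gene symbol, 1801 several and 11783 none or a control, with 62 controls among the last. For each of 19775 genes the probe set with the highest mean was used, if it reached a log2 value of 4 in 3 or more of the 24 arrays, whatever their group. One limma fit (version 3.58.1, R 4.3.3) of the 8 group means gave 12 comparisons by contrasts and eBayes, with two-sided tests and Benjamini-Hochberg adjustment over 10971 genes in each. Exact permutation of 3 and 3 arrays reaches no p below 0.1 and was left out. The steps were tested on simulated data. The number of arrays limits the precision.

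The enzymes and the 8 lists were chosen with earlier results of these data known, as were the alternatives. All enzymes are named, with up to 3 genes by adjusted p per list and comparison, a panel of 12 further genes and the 3 genes most like each enzyme. Promoter windows and positions come from RefSeq, GRCh38.p14. Figures were drawn with matplotlib 3.10.9 in Python 3.11.15.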

Additional observations from a re-analysis of the deposited data

Results flagged for a closer look

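The change under EPZ004777 differed between days or lines by the model's own test in 6 cases, each with values of both sides. Of the 6 enzymes, 1 was called for days 4 and 2, 1 for days 6 and 4, 3 for days 6 and 2 and 1 between lines. The shares of all genes called in either direction were 15.0%, 25.7%, 39.6% and 52.0% in that order. That of PSAT1 was -1.21 on day 4 and -0.68 on day 2 in MV4-11 cells, a difference of -0.526 (limma, adjusted p = 0.0229), and -1.22 on day 6, a difference from day 2 of -0.543 (adjusted p = 0.00776). That of PSPH was -1.14 on day 6 and -0.25 on day 2, a difference of -0.894 (adjusted p = 0.00351), and by its other probe set above the filter, 205194_at, the difference was -0.105 (adjusted p = 0.707). That of MTHFD1 was -0.56 on day 6, -0.01 on day 4 and 0.01 on day 2, with differences of -0.547 from day 4 (adjusted p = 0.000136) and -0.573 from day 2 (adjusted p = 2.32e-05). In MOLM-13 cells the MTHFD1 change was -0.34, a difference from MV4-11 cells of 0.218 (adjusted p = 0.0323). That call between lines was lost in 11 of 23 settings, and the PSAT1 call for days 4 and 2 in 6 of 24. With the vehicle of days 2 and 6 as the day 4 control, the MTHFD1 difference of day 6 from day 4 was -0.168 (limma, adjusted p = 0.076).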

How the results depend on the processing

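Over 72 results for single enzymes, 1271 settings kept direction and call, 77 lost a call, 37 gained one and 7 turned the direction of a value called before or after, 2 of them by 244819_x_at, which gives no level. PSAT1 on days 4 and 6 and in MOLM-13 cells, and PHGDH on days 4 and 6 and in MOLM-13 cells, kept direction and call under every setting run. Averaging the probe sets of each gene, the vehicle difference of PSAT1 between MOLM-13 and MV4-11 cells was -0.354, MAT2A gave -0.89 on day 6 and -1.277 in MOLM-13 cells, MAX -0.566 and -0.948, SLC19A1 -0.255 and TOP2A 0.136 in MOLM-13 cells. With other probe sets, PSPH gave 0.003 on day 6 and 0.262 in MOLM-13 cells by 244819_x_at and, by 205194_at, 0.016 in EPZ004777 arrays of day 6 minus day 2. Likewise the SHMT2 change differed by -0.323 between days 6 and 4, and the vehicle line difference was -1.067 for PSAT1 and -0.251 for MTHFD2. With the 3' minus 5' covariate MAT2B gave 0.01 on day 6 and CEBPG 0.106 in MOLM-13 cells, and with the vehicle of days 2 and 6 ATIC gave -0.185 on day 4. For these reversals the cause was not tested.

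Counts of enzymes called moved as follows. Leaving out 1 array gave 1 to 2 on day 2, 0 to 2 for the difference of days 4 and 2, 1 to 2 for days 6 and 4, 0 to 4 between lines and 1 to 2 for the day 4 vehicle arrays. Of all 10971 genes, 909 to 981, 1295 to 1506, 2108 to 3164, 5274 to 6193 and 1873 to 3035 were then called, in that order. For days 6 and 4, a common median, a trended robust prior and the replicate block within line and day each gave 2. Between lines, a common median, the comparison's own arrays and that replicate block gave 0, and the mean of probe sets 3. No filter gave 1 on day 2. For the day 4 vehicle arrays the comparison's own arrays gave 1 and the mean of probe sets 0, and for the vehicle lines that mean gave 3. The covariate gave 1 for days 6 and 2. A 1.5-fold minimum gave 1, 2, 3 and 3 in the 4 treatment comparisons, 0, 0, 1 and 0 for their differences, 0 for the day 4 vehicle arrays and 2 for the vehicle lines, since it calls fewer genes. The vehicle of days 2 and 6 gave 3 for days 4 and 2 and 0 for days 6 and 4. Over all genes, settings that kept every array, the main fit included, called 410 to 1938 on day 2. They called 826 to 3540 for days 4 and 2, 1185 to 2990 for days 6 and 4 and 2179 to 4438 for days 6 and 2. Between lines they called 3315 to 5779, for the day 4 vehicle arrays 491 to 3654 and for the vehicle lines 3478 to 7130. Same-numbered arrays did not deviate together (r between -0.261 and 0.096 in 12 pairs, 0 over 0.1, and 2 of 12 closest to their own number), and the main fit used no pairing. These correlations cannot show whether same-numbered cultures were set up together, and the labels do not say.

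Over all genes, calls of 1372 on day 2 were 909 to 981 without 1 array, with the fewest without replicate 1 of the vehicle arrays. Those of 3140 for the day 4 vehicle arrays were 1873 without replicate 3 of them, and those of 123 for vehicle days 6 and 2 were 28 to 366 without 1 array, 4 with the comparison's own arrays and 214 with the covariate. The covariate gave 4339 in MOLM-13 cells, against 7214, and 1497 for days 6 and 4, against 2824. The vehicle of days 2 and 6 gave 3540 for days 4 and 2, against 1644. A 1.5-fold minimum gave 410, 1829, 3183 and 3487 in the treatment comparisons, against 1372, 5068, 6800 and 7214, then 826, 1185, 2179 and 3315 for their differences, against 1644, 2824, 4343 and 5709. For the day 4 vehicle, vehicle days, vehicle lines and EPZ004777 days it gave 491, 32, 3478 and 2353, against 3140, 123, 6996 and 6106.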
